A study of Mus musculus with 12 samples.

Results

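The genes for subunits and assembly factors of the proteasome were followed through 10 RNA sequencing libraries of mouse CD4+ T cells, together with the binding sites of Bach2 near them. Members were the loci whose symbol begins with Psma, Psmb, Psmc, Psmd, Psme or Psmg, which gave 48 of the 23700 loci listed. Of these, 5 make up the immunoproteasome set (Psmb8, Psmb9, Psmb10, Psme1 and Psme2) and 43 were the other members. All cells came from C57BL/6J mice. Bach2-deficient (Bach2KO) iTreg cells gave 3 libraries and wild type (WT) iTreg cells gave 3, where iTreg stands for regulatory T cells induced in culture. Both genotypes were cultured alike, for 3 days with anti-CD3, anti-CD28 (both at 10 μg/ml), IL-2 (100 IU/ml) and TGF-β1 (5 ng/ml). WT cells polarized for 3 days on the same antibodies gave 1 library each for Th1 (20 ng/ml IL-12 with anti-IL-4), Th2 (20 ng/ml IL-4 with anti-IFN-γ) and Th17 (20 ng/ml IL-6 and 2 ng/ml TGF-β1 with both blocking antibodies). Naive CD4+ T cells gave 1 library. Bach2 binding was measured by chromatin immunoprecipitation (ChIP) in 1 library of WT iTreg cells against 1 input. The labels do not say which part of Bach2 was deleted, in which cells, or whether replicates came from separate animals or cultures, so p-values measure only the spread between these samples.

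The proteasome degrades proteins tagged with ubiquitin. Its 20S core is a stack of rings of alpha subunits (Psma genes) and beta subunits (Psmb genes), and 3 of the standard beta subunits carry the peptidase sites: Psmb5, Psmb6 and Psmb7. The 19S regulatory particle, made of ATPases (Psmc genes) and non-ATPase subunits (Psmd genes), binds the ubiquitin chain, unfolds the protein and feeds it into the core. Interferon-γ is known to induce Psmb8, Psmb9 and Psmb10, which take the places of Psmb5, Psmb6 and Psmb7 and favour the cutting of peptides for MHC class I, and Psme1 and Psme2, the subunits of the PA28 activator. In mammals Nfe2l1 (NRF1), a CNC-family factor that pairs with small Maf proteins at antioxidant response elements (ARE), drives the standard genes as a group. Bach2 is a repressor of the same family.

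Bach2 peaks in WT iTreg cells lay at the starts of many members. The sequences shown are the mm9 windows of 101 bases around the peak summits, in the direction of the gene. They cover the 6 start peaks with the highest score whose window holds no annotated untranslated region. Psme4, the gene that changed least between the genotypes, and Psme2, the single immunoproteasome member with a start peak, were added. Psme4 has 2 start peaks, and the window shown is that of the higher score. Its summit lies 1500 bases into the gene. Capitals mark matches, on either strand, to TGANTCA (the AP-1 type), the Maf type (MARE: TGC followed directly by the AP-1 type, which it therefore contains) and TGACNNNGC (the ARE core, which can overlap both).
Psma3 (chr12:72075943-72076043, plus strand): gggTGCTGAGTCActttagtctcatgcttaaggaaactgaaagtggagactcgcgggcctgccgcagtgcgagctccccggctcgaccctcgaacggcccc
Psmd1 (chr1:87961409-87961509, plus strand): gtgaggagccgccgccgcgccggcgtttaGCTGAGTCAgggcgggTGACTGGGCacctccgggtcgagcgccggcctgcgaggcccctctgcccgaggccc
Psma6 (chr12:56499916-56500016, plus strand): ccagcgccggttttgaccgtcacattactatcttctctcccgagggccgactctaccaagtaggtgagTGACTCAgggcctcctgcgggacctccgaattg
Psmd12 (chr11:107340981-107341081, plus strand): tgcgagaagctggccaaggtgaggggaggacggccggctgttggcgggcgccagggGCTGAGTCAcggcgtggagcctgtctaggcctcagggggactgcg
Psmd7 (chr8:110112108-110112208, minus strand): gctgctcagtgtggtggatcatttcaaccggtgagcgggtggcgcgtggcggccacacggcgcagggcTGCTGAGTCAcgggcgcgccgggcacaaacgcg
Psmb6 (chr11:70338784-70338884, plus strand): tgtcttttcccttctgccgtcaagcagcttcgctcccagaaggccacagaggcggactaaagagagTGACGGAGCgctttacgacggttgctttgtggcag
Psme4 (chr11:30673225-30673325, plus strand): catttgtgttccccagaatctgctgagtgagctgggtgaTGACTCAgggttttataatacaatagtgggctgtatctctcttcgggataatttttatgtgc
Psme2 (chr14:56208800-56208900, minus strand): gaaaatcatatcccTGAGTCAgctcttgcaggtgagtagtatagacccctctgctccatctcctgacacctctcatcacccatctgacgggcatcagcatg

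By the GENCODE annotation of the same build, the windows at Psma3 and Psme4 hold no exon, and those at Psmd1, Psma6, Psmd12, Psmd7, Psmb6 and Psme2 hold 64, 63, 18, 30, 16 and 66 exonic bases in that order. The windows at Psma3, Psmd1, Psma6, Psmd12, Psmd7, Psme4 and Psme2 hold the AP-1 type, and those at Psma3 and Psmd7 also the longer Maf type. The window at Psmb6 holds the ARE core alone. So does the window of the other start peak of Psme4, not shown, whose summit lies 7 bases before the start. Over the 32 summits of peaks at member starts, 12 had the AP-1 type, against 33.5% of all 22494 summits in the deposited list. The Maf type was at 4 of the 32 summits, against 8.57% of all, and the ARE core at 15 of the 32, against 25.6% of all. CCAAT, a short box common at promoters, was at 2 of the 32 and at 9.0% of all. The full list takes in peaks at any distance from a gene start, and start peaks of other genes were not counted apart. A match describes letters in the window and says nothing of use as a site. In the promoters themselves (250 bases before the gene start to 50 after it), the ARE core was in 8 of the 41 other members tested, in 0 of the 5 immunoproteasome members and in 14.5% of all 11142 promoters read. The interferon-related patterns, an IRF type (GAAA, any 2 bases, GAAA) and TTCNNNGAA (the GAS type), were in 1 immunoproteasome promoter each, those of Psme1 and Psmb8, in 5 and 2 of the 41 other members' promoters and in 3.3% and 6.86% of all promoters.

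Expression values are FPKM (fragments per kilobase of transcript per 1e+06 mapped), and differences are on log2(FPKM + 0.5). Bach2 averaged 3.81 ± 0.378 FPKM in Bach2KO and 17.6 ± 0.351 FPKM in WT iTreg cells (SD, n = 3 each), a log2 difference of -2.08 (limma adjusted p = 4.4e-06 after Benjamini-Hochberg adjustment, SE 0.074). Over genes with a single start, the reads implied by the deposited confidence intervals came to between 20.1 and 24.0 M (1e+06 reads) in Bach2KO, 18.2 and 19.1 M in WT iTreg and 12.4 and 18.5 M in the single libraries, and a tested member with a single start rested on at least 37.1 implied reads in every library. The 6 T cell markers found summed to between 1144.5 and 1271.6 FPKM in Bach2KO and between 1430.7 and 1455.8 FPKM in WT iTreg libraries, and 3 of them (Cd3e, Cd5 and Lck) fell. Foxp3, the factor that marks Treg cells, stood at 7.68, 19.7 and 5.81 FPKM in Bach2KO and at 69.6, 66.7 and 81.1 FPKM in WT iTreg libraries. Summed B cell markers (9 genes) ranged from 14.3 to 21.1 FPKM in Bach2KO and unevenly from 12.8 to 74.7 FPKM in WT iTreg libraries, with WT replicates 1 and 3 above replicate 2. Myeloid and dendritic cell markers (12 genes) ranged from 153.3 to 178.4 FPKM in Bach2KO and from 33.4 to 252.2 FPKM in WT iTreg libraries. Cd74 alone averaged 115.5 ± 15.5 FPKM in Bach2KO and 67.97 ± 53.1 FPKM in WT (SD, n = 3 each). Of the 6 tested, 1 fell (Itgam, 0.1432 FPKM in Bach2KO and 3.697 FPKM in WT) and 1 rose (Zbtb46, 3.002 and 0.2352 FPKM). Lyz2, Csf1r, Cd14 and Itgax were under the filter. CD8 and NK cell markers (5 genes) summed to 12.3, 11.3 and 11.3 FPKM in Bach2KO and to 4.58, 5.53 and 5.26 FPKM in WT iTreg libraries, without overlap. Both tested genes of this list rose, Cd8a at 2.232 ± 0.124 FPKM in Bach2KO and 0.0925 ± 0.0107 FPKM in WT and Cd8b1 at 9.192 ± 0.49 FPKM in Bach2KO and 4.908 ± 0.496 FPKM in WT (SD, n = 3 each), while the NK genes Klrb1c, Ncr1 and Klrk1 were under the filter. Of all genes tested, 41.0% rose and 33.6% fell. The part of these markers in the results was not tested.

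Nearly all proteasome genes were higher in iTreg cells that lack Bach2. Of the 41 other members tested, 39 rose, 0 fell and 2 (Psmd4 and Psme4) did not pass, and all 5 immunoproteasome members rose. This stands against a background in which 41.0% of the 11473 genes tested rose and 33.6% fell (limma, Benjamini-Hochberg adjusted p below 0.05). The median log2 difference was 1.15 for the immunoproteasome and 0.71 for the other members, beside 0.07 for all genes. Of all genes, 21.5% reached the median of the other members. Replicates did not overlap, with Bach2KO above WT, for 5 of 5 immunoproteasome and 40 of 41 other members, where 43.4% of all genes did the same and 36.0% had WT above Bach2KO. The increase was at least 2-fold and called for 3 of 5 immunoproteasome and 8 of 41 other members, against 14.6% of all genes. For the other members that share is near the share of all genes, and the 8 include Psmc3ip, which is not a proteasome subunit. In bulk RNA, a change in the amount of RNA per cell and a change in the mix of cells cannot be told apart.

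**Figure D1:**
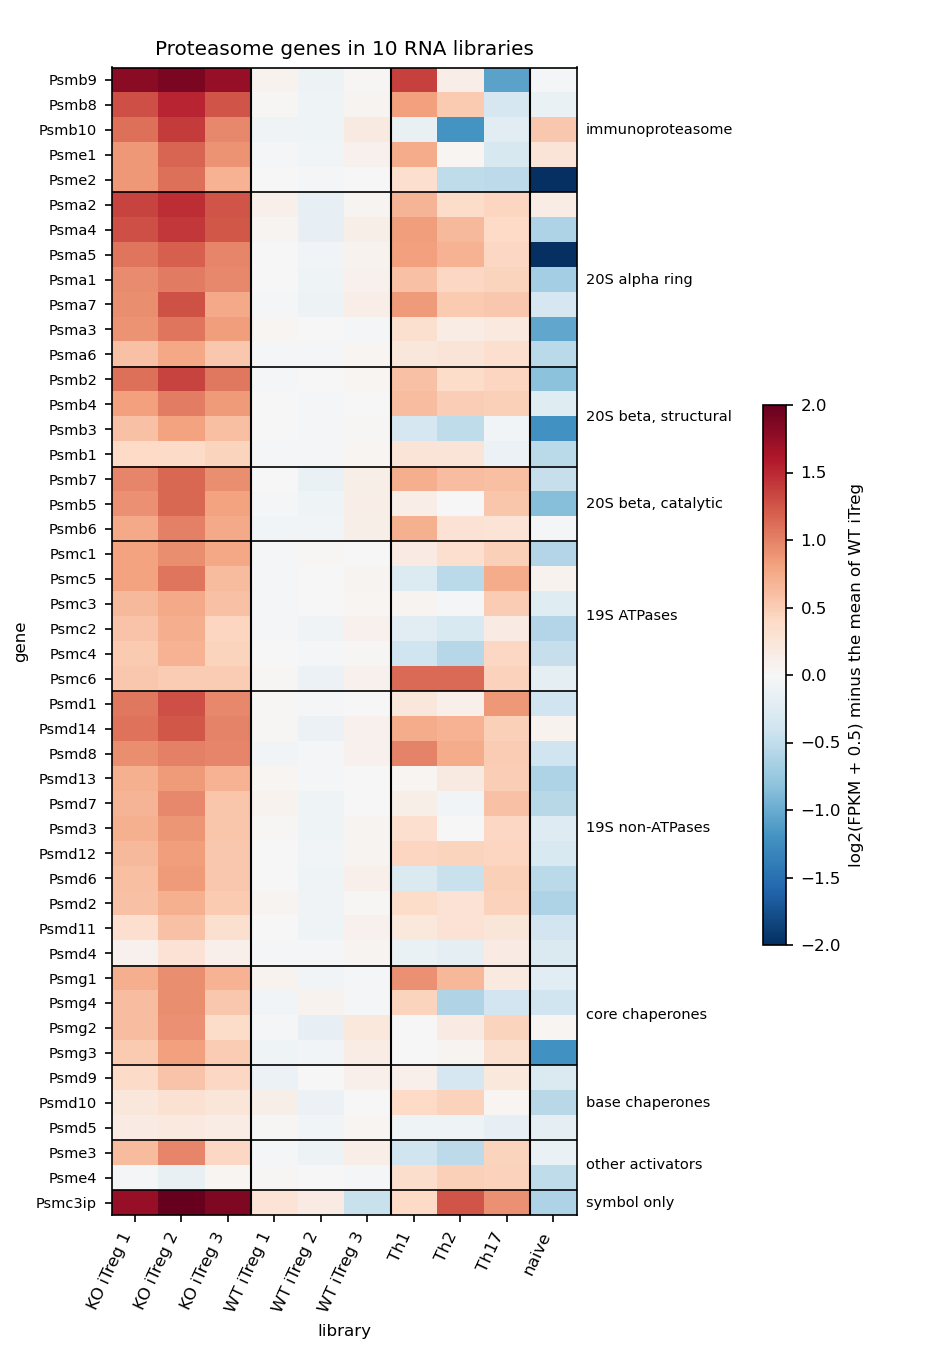
Each cell is the log2(FPKM + 0.5) of a gene (rows, 46 tested members grouped by part of the proteasome) in a library (columns), minus the mean of the 3 WT iTreg libraries. Red is higher and blue lower than that mean, with colours capped at 2 either way. The Bach2KO columns are red in nearly every row, the naive column is blue in most, and the immunoproteasome rows differ between Th1, Th2 and Th17.

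Together the members took 0.753, 0.847 and 0.727% of all summed FPKM in Bach2KO libraries, against 0.515, 0.491 and 0.54% in WT iTreg libraries. Those shares do not overlap, and they allow for the higher FPKM totals of the Bach2KO libraries. The scaling of libraries moved the whole comparison: relative to the authors' values, the median of all genes shifted by -0.16 under quantile normalization or an equal upper quartile and by -0.25 with equal sums (FPKM totals matched, loci under 300 bp left out), and the share of higher among called genes went with it, at 43.4, 44.1 and 37.7% in turn against 55.0% as deposited. Measured from the median of all genes, the other members stood 0.58 to 0.64 higher and the immunoproteasome 1.00 to 1.08 higher under these scalings and the equal median ratio. Under the same scalings, 39 or 40 of the 41 other members lay above that median. Bach2KO replicate 2 held the highest of the 3 Bach2KO values for 38 of the 41 other members and for all 5 immunoproteasome members, against 45.2% of all genes. Without it, the called counts were still 39 and 5.

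Proliferation genes moved with the proteasome genes. All 8 on the list (Mki67, Top2a, Ccna2, Ccnb1, Cdk1, Pcna, Mcm2 and Mcm5) rose, with a median of 3.5, where 41.0% of all genes rose. They summed to between 928.5 and 1022.8 FPKM in Bach2KO and between 111.0 and 128.5 FPKM in WT iTreg libraries. The sums were 712 FPKM in Th1, 957 in Th2, 599 in Th17 and 123 in naive cells. Pcna alone stood at 96.8 FPKM in naive cells and averaged 56.22 FPKM in WT iTreg cells. Mki67, Top2a, Ccna2, Ccnb1 and Cdk1 stood at 0.997 FPKM or less in naive cells and averaged 2.685 to 15.98 FPKM in WT iTreg cells. The near sums of naive and WT iTreg cells thus hide unlike levels of single genes. The part of the proliferation genes in the results on the proteasome was not tested.

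The immunoproteasome rose most for its catalytic subunits. Psmb9 (chromosome 17, 34319044 to 34324275, mm9), which encodes the immune form of the caspase-like site, had 327, 346 and 314 FPKM in Bach2KO and 98.6, 86.9 and 95.5 FPKM in WT iTreg libraries. The groups lie far apart, with a log2 difference of 1.81 (SE 0.064, limma adjusted p = 4.3e-06). Psmb8, the immune form of the chymotrypsin-like site (chromosome 17, 34335140 to 34338399), had 331, 389 and 324 FPKM in Bach2KO and 138, 128 and 141 FPKM in WT iTreg libraries, a difference of 1.35 (SE 0.082, limma adjusted p = 2.7e-05). Psmb10, the immune form of the trypsin-like site (chromosome 8, 108459628 to 108462292), had 80.96, 99.3 and 73.5 FPKM in Bach2KO and 35.2, 35.3 and 42.4 FPKM in WT iTreg libraries, a difference of 1.15. The PA28 subunit gene Psme1 had 251, 308 and 256 FPKM in Bach2KO against 135, 132 and 147 FPKM in WT, a difference of 0.97. Its partner Psme2 had 146, 171 and 129 FPKM in Bach2KO against 79.96, 78.5 and 80.1 FPKM in WT, a difference of 0.89. None of these 5 genes overlapped between the genotypes. Together they summed to 1136.2, 1313.4 and 1096.6 FPKM in Bach2KO libraries and to 486.2, 461.2 and 505.5 FPKM in WT libraries.

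**Figure D2:**
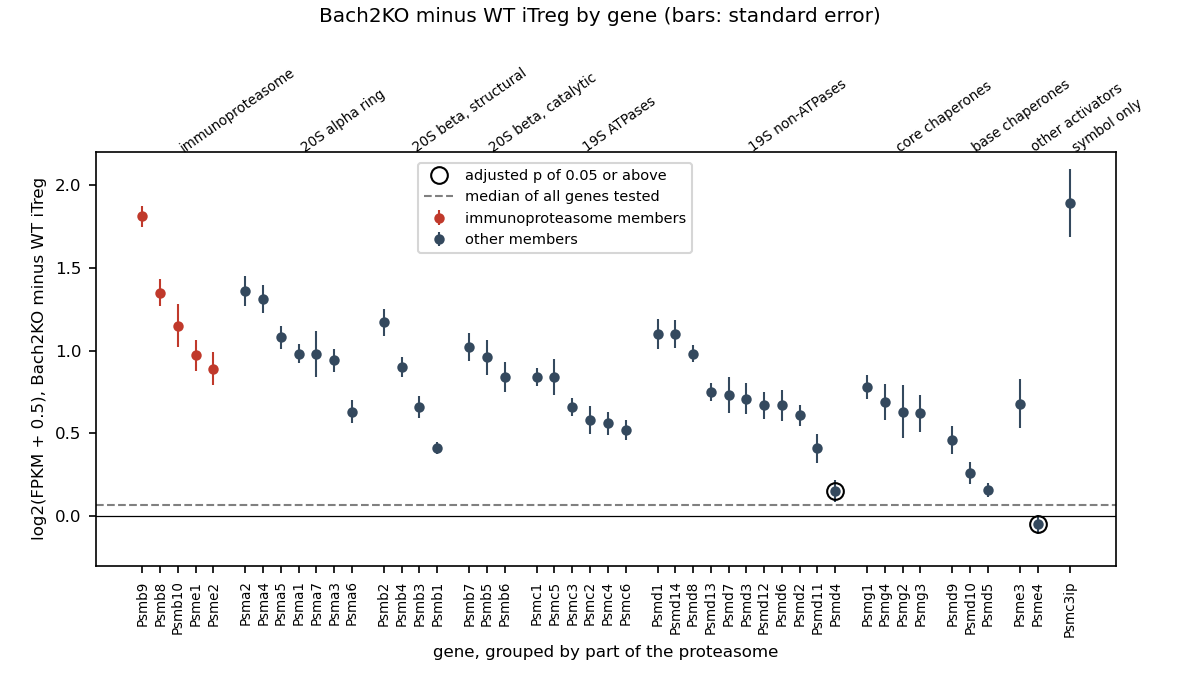
Points are log2(FPKM + 0.5) differences, Bach2KO minus WT iTreg (n = 3 each), for the 46 tested members, with bars of 1 standard error. Rings mark Psmd4 and Psme4, which did not pass, and the dashed line is the median of all genes tested (0.07). The alpha ring lies between 0.63 and 1.36, the 19S ATPases between 0.52 and 0.84.

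Whether the immune catalytic subunits gained on the standard ones was read from the log2 ratio within each library of each immune subunit over the one whose place it takes. For Psmb9 over Psmb6 the ratio was 2.21, 2.03 and 2.15 in Bach2KO and 1.29, 1.11 and 1.07 in WT iTreg libraries, a difference of 0.97. For Psmb8 over Psmb5 it was 1.93, 1.92 and 2.02 in Bach2KO and 1.63, 1.58 and 1.48 in WT iTreg libraries, a difference of 0.39. Both ratios were higher in all 3 Bach2KO libraries than in any WT library. With 3 libraries against 3, an exact two-sided permutation test cannot go below 0.1, which is the p reached for both, and 0.15 after adjustment over the 3 pairs. For Psmb10 over Psmb7 the ratio was -0.45, -0.34 and -0.56 in Bach2KO and -0.69, -0.54 and -0.52 in WT, so the groups overlapped (difference 0.13, exact permutation p = 0.3, adjusted 0.3).

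The same ratios were read in the single libraries. Psmb8 over Psmb5 was 2.24 in Th1, 2.09 in Th2, 0.67 in Th17 and 2.28 in naive cells. Psmb9 over Psmb6 was 1.81 in Th1, 1.01 in Th2, -0.2 in Th17 and 1.16 in naive cells. Psmb10 over Psmb7 was -1.47 in Th1, -2.39 in Th2, -1.41 in Th17 and 0.42 in naive cells, the single library where the immune subunit of this pair stood above the standard one. These are values of 1 library each with no spread. Of the Psmb5 transcript, 60.3% of its 50-base stretches also occur elsewhere in the genome, and since only uniquely mapped reads were used, its level and the first ratio carry that uncertainty.

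**Figure D3:**
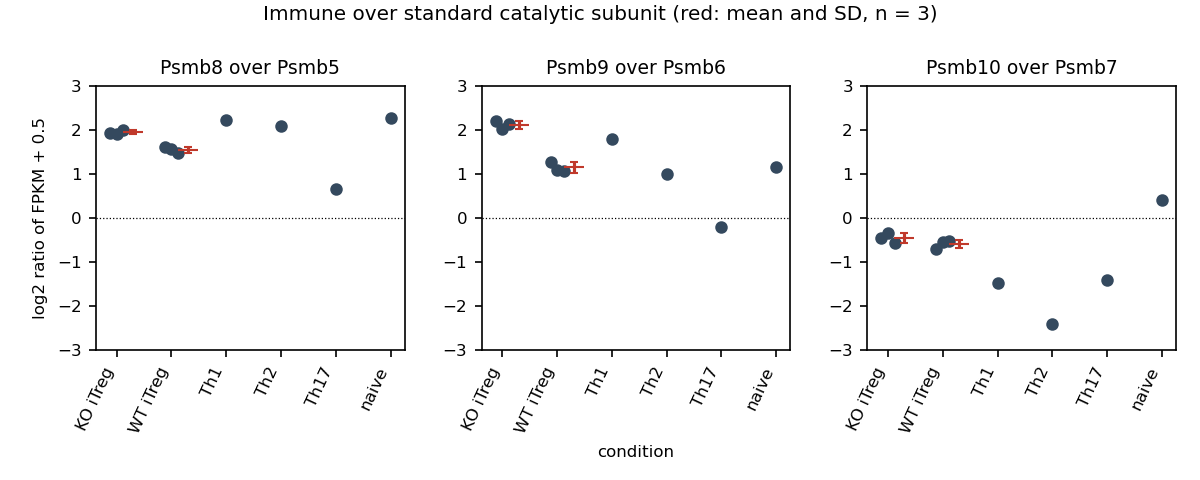
Points are the log2 ratio of FPKM + 0.5 of an immune over the matching standard catalytic subunit in each library, and red marks are the mean and SD of 3 libraries. The Bach2KO points stand above the WT iTreg points in the first 2 panels and overlap them in the third; Th17 has the lowest Psmb8 and Psmb9 ratios.

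All 14 tested standard subunits of the 20S core rose, with a median log2 difference of 0.97. Of the 7 alpha subunits tested, Psma2 rose most: it had 148, 160.1 and 138 FPKM in Bach2KO and 61.6, 51.3 and 60.01 FPKM in WT iTreg libraries, a difference of 1.36 (SE 0.09, limma adjusted p = 3.7e-05). Psma4 followed with a difference of 1.31, at 104.7 ± 6.2 FPKM in Bach2KO and 42.0 ± 4.26 FPKM in WT (SD, n = 3 each). Psma6 rose least of the ring, at 124.3 ± 11.3 FPKM in Bach2KO and 79.98 ± 2.13 FPKM in WT, a difference of 0.63, and Psma3 was next to it at 0.94. Psma5, Psma1 and Psma7 lay between, at 1.08, 0.98 and 0.98. Standard errors in the ring ran from 0.057 to 0.139.

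The 4 structural beta genes rose by 1.17 (Psmb2), 0.90 (Psmb4), 0.66 (Psmb3) and 0.41 (Psmb1). Psmb2 had 152, 181 and 148 FPKM in Bach2KO and 69.3, 70.4 and 72.8 FPKM in WT iTreg libraries, while Psmb1 had 155, 154 and 159.8 FPKM in Bach2KO and 116, 116 and 121 FPKM in WT, closer but without overlap. The 3 standard catalytic genes rose to a like degree. Psmb7, the trypsin-like subunit, had 111, 126 and 108 FPKM in Bach2KO and 56.99, 51.6 and 60.99 FPKM in WT, a difference of 1.02. Psmb5, the chymotrypsin-like subunit, had 86.5, 102 and 79.7 FPKM in Bach2KO against 44.3, 42.7 and 49.9 FPKM in WT (0.96), and Psmb6, the caspase-like subunit, had 70.3, 84.5 and 70.6 FPKM against 39.9, 39.9 and 45.1 FPKM (0.84). Both forms of each catalytic subunit therefore rose in the same libraries.

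Of the 17 subunits of the 19S particle, 16 rose, with a median of 0.67. All 6 ATPases rose, led by Psmc1 and Psmc5 at 0.84 each, with Psmc4 at 0.56 and Psmc6 at 0.52 last. Psmc1 had 64.3, 70.4 and 63.1 FPKM in Bach2KO and 35.8, 37.4 and 36.9 FPKM in WT iTreg libraries. Psmc6 had 55.6, 54.3 and 54.01 FPKM in Bach2KO and 38.8, 35.1 and 40.3 FPKM in WT, which do not overlap. Among the 11 non-ATPase subunits, Psmd1, a large scaffold of the base, had 41.2, 48.8 and 38.6 FPKM in Bach2KO and 20.04, 18.99 and 19.8 FPKM in WT, a difference of 1.10 (SE 0.09, limma adjusted p = 8.5e-05). Psmd14, the deubiquitinase that removes the chain from the substrate, also differed by 1.10, at 60.46 ± 5.41 FPKM in Bach2KO and 27.86 ± 2.07 FPKM in WT (SD, n = 3 each). The smallest differences were those of the ubiquitin receptor Psmd4 and of Psmd11. Psmd11 rose by 0.41 (SE 0.088, limma adjusted p = 0.0058). Psmd4 had 77.5, 88.9 and 78.1 FPKM in Bach2KO and 71.1, 71.9 and 76.3 FPKM in WT, a difference of 0.15 that did not pass (SE 0.066, limma adjusted p = 0.075) and was below 0 under 3 of the 4 other scalings.

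Core and base assembly chaperones had median log2 differences of 0.66 and 0.26. The 4 core chaperones all rose: Psmg1 by 0.78, Psmg4 by 0.69, Psmg2 by 0.63 and Psmg3 by 0.62. Psmg1, which with Psmg2 helps the alpha ring form, had 28.2, 32.2 and 27.4 FPKM in Bach2KO and 17.6, 16.2 and 16.5 FPKM in WT iTreg libraries. Psmg3 had 19.8, 24.6 and 19.6 FPKM in Bach2KO and 12.8, 13.1 and 15.3 FPKM in WT. No value of these 4 genes overlapped between genotypes. The 3 chaperones of the ATPase base rose by 0.46 (Psmd9), 0.26 (Psmd10) and 0.16 (Psmd5). Psmd5 averaged 21.03 ± 0.323 FPKM in Bach2KO and 18.72 ± 0.632 FPKM in WT (SD, n = 3 each), and its direction turned under an equal upper quartile and under equal sums, as that of Psmd10 did under equal sums.

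The activators apart from PA28 alpha and beta split. Psme3, the nuclear PA28 gamma, had 75.04, 95.6 and 64.4 FPKM in Bach2KO and 47.2, 44.8 and 52.6 FPKM in WT iTreg libraries and rose by 0.68 (SE 0.148, limma adjusted p = 0.0064). Psme4, which encodes the activator PA200, had 15.7, 14.4 and 16.5 FPKM in Bach2KO and 16.3, 16.1 and 15.7 FPKM in WT, so the groups overlapped (difference -0.05, SE 0.058, limma adjusted p = 0.49). It was the single tested member without separated groups, and it was called lower under 3 other scalings. Psma8 and Psmb11, the core subunits known from testis and thymic epithelium, were under the filter of 0.5 FPKM and were not tested. Psma8 was listed at 0.0183, 0.0821 and 0.0656 FPKM in Bach2KO and Psmb11 at 0.0135, 0.00756 and 0.0161 FPKM, and both were listed at 0 in all 3 WT iTreg libraries. Psmc3ip, which the symbol rule takes in, encodes a factor of meiotic recombination and not a proteasome subunit. It had 9.55, 12.03 and 10.4 FPKM in Bach2KO and 3.13, 2.86 and 1.69 FPKM in WT, a difference of 1.89 that is larger than that of any other member.

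How the members stand in the other CD4+ conditions was read against the naive library, with 1 library a condition and 3 for WT iTreg, and with no test. The comparisons share that library. In Th1 cells 12 of the 41 other members were at least 2-fold higher than in naive cells and 0 were at least 2-fold lower, where 27.9% and 9.41% of 11685 genes were. In Th2 cells 11 were higher and 0 lower, where 26.4% and 11.2% of genes were. In Th17 cells 16 were higher and 0 lower, where 23.5% and 7.08% of genes were. In WT iTreg cells 4 were higher and 0 lower, where 16.8% and 3.36% of genes were. The share of other members past 2-fold is thus near that of all genes in Th1 and Th2. Their medians over naive were 0.78 in Th1, 0.75 in Th2, 0.88 in Th17 and 0.47 in WT iTreg cells, beside medians of all genes of 0.34, 0.26, 0.34 and 0.31 in the same order. Under quantile normalization, the 2-fold counts fell to 2, 2, 3 and 1 in that order, while the other members' medians stayed 0.44, 0.45, 0.51 and 0.15 above that of all genes.

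**Figure D4:**
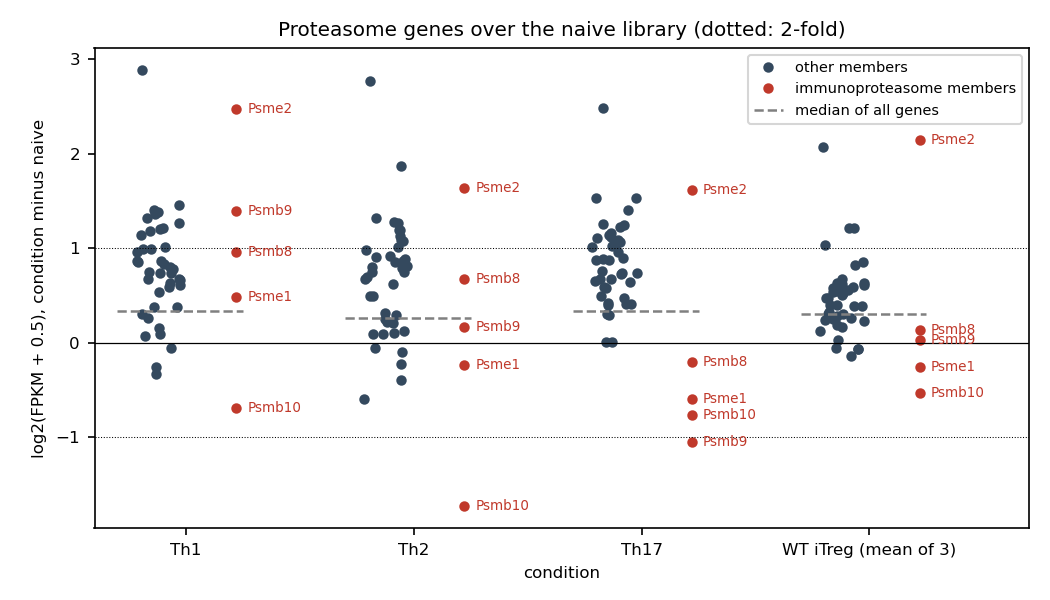
Points are log2(FPKM + 0.5) differences of Th1, Th2, Th17 and WT iTreg (mean of 3) from the naive library for the 46 tested members; dashed lines are medians of all genes and dotted lines mark 2-fold. The other members lie mostly above 0, and the immunoproteasome members spread on both sides in Th2, Th17 and WT iTreg.

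The immunoproteasome members had a median over naive of 0.96 in Th1, 0.17 in Th2, -0.59 in Th17 and 0.03 in WT iTreg cells, with 4, 3, 1 and 3 of the 5 above naive in that order. Psmb9 stood at 241 FPKM in Th1, 103 in Th2, 44.04 in Th17 and 91.5 in naive cells, log2 differences from naive of 1.39, 0.17 and -1.05 in Th1, Th2 and Th17. Psmb8 stood at 239 FPKM in Th1, 196 in Th2, 107 in Th17 and 123 in naive cells. Psmb10 stood at 33.7 FPKM in Th1, 16.1 in Th2, 32.01 in Th17 and 54.5 in naive cells, lower than naive in each of these 3. Psme1 stood at 231 FPKM in Th1, 141 in Th2, 109.8 in Th17 and 165 in naive cells. In the Th17 library 4 of the 5 were below naive, while all 41 other members were above it, 35 of them under quantile normalization. Psme2 was the exception, at 101 FPKM in Th1, 55.7 in Th2, 54.9 in Th17 and 17.6 FPKM in naive cells, but 59.3% of its 50-base stretches occur elsewhere, so its level is uncertain.

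Over the 6 conditions, Bach2KO iTreg had the highest level for 35 of the 41 other members and for all 5 immunoproteasome members. It did so for 2519 of all 11473 genes tested. Every Bach2KO library stood above each of the other 7 libraries for 30 of 41 other members and 5 of 5 immunoproteasome members, against 15.1% of all genes. The exceptions in level were Psmc6, Psmd8 and Psmg1, highest in Th1, Psmd10 and Psme4, highest in Th2, and Psmd4, highest in Th17. Psmc6 had 84.2 FPKM in Th1 and 83.97 in Th2, against between 54.01 and 55.6 FPKM in Bach2KO and between 35.1 and 40.3 FPKM in WT iTreg libraries. At the low end, the naive library was below the other 9 for 32 of the 41 other members, against 39.0% of all genes, and for 1 of the 5 immunoproteasome members. That order is of FPKM as deposited, whose total was 303348 in the naive library and between 430495 and 553892 in the others. As a share of that total the members took 0.678% in Th1, 0.55% in Th2, 0.612% in Th17 and 0.577% in naive cells, so the naive share lay above that of Th2 and of all 3 WT iTreg libraries. Under quantile normalization, 24 of the 41 other members in WT iTreg cells were above naive, against 37 as deposited. The lowest condition was Th17 for Psmb8, Psmb9 and Psme1, Th2 for Psmb10 and naive for Psme2. Single libraries carry no spread, so the order of neighbouring values such as 84.2 and 83.97 FPKM was not tested.

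The 20S genes were more unequal in naive cells than elsewhere. The SD of log2(FPKM + 0.5) among the 14 standard core genes was 0.64 in each Bach2KO library, 0.69 to 0.7 in WT iTreg libraries, 0.73 in Th1, 0.75 in Th2, 0.71 in Th17 and 1.08 in naive cells. The low end in naive cells was Psma5 at 5.69 FPKM and Psma3 at 10.1 FPKM. Copies elsewhere in the genome cover 56.6% and 26.3% of the 50-base stretches of these genes, so the naive levels are uncertain. The like measure among the 17 genes of the 19S particle was 0.47 to 0.51 in Bach2KO and 0.5 to 0.53 in WT iTreg libraries. It was 0.63 in Th1, 0.62 in Th2, 0.49 in Th17 and 0.55 in naive cells, so naive cells were not the most unequal here. Other members with many shared stretches were Psmb3 (63.5%), Psma4 (45.3%) and Psmd12 (36.5%), while Psmb8, Psmb9 and Psmb10 had 0.

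The loci of 6 members overlap another listed locus, and strand was not stated to be used in counting. At Psmb5 the overlapping locus is Mir686, which shares 109 bases with it and stood at 989.9, 1132.6 and 1078.2 FPKM in Bach2KO and at 439, 408 and 529.8 FPKM in WT iTreg libraries. It reached 1505.5 FPKM in Th17, and its part in the level of Psmb5 and in the ratio of Psmb8 over Psmb5 was not tested. The overlap at Psmd1 is with Htr2b, which stood at 0.165 FPKM or less in all 10 libraries. The others are Psma3, Psma4, Psmc3ip and Psme1, with overlaps of 3309, 96, 67 and 4 bases.

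Genes that work with the proteasome were read from lists, beside all genes tested, of which 41.0% rose and 33.6% fell. Of 12 further parts and cofactors, all 12 rose, with a median of 0.46. Pomp, the maturation factor of the core, had 173, 196 and 169.6 FPKM in Bach2KO and 63.8, 63.5 and 67.04 FPKM in WT iTreg libraries, a difference of 1.46 (SE 0.065, limma adjusted p = 9.2e-06). Shfm1, a small lid subunit, rose by 0.73 and Txnl1, a thioredoxin bound to the 19S particle, by 1.04. The list depended on scaling: under equal sums, 6 rose and 1 fell. Of 10 tested genes of the NRF1 route, 4 rose, beside 41.0% of all genes, and 5 fell, beside 33.6% of all genes. The median of the 10 was -0.06. Nfe2l1 itself had 25.3, 26.9 and 23.5 FPKM in Bach2KO and 20.2, 20.4 and 21.1 FPKM in WT, a difference of 0.28 (SE 0.059, limma adjusted p = 0.005) that did not pass under an equal upper quartile (adjusted p = 0.068) or equal sums (adjusted p = 0.8). The segregase subunit Vcp rose by 0.68, the adaptor Keap1 by 0.64 and the small Maf gene Maff by 1.33. The 5 that fell, named here after their values were seen, were the Bach2 relative Bach1 (-0.65), the protease Ddi2 that cuts Nfe2l1 (-0.50), the Nfe2l1 relative Nfe2l2 (-0.48), the small Maf gene Mafk (-0.46) and the glycanase Ngly1 (-0.19). Of 16 ubiquitin genes and shuttles, 11 rose and 3 fell, with Ubb at 0.57, the activating enzymes Uba1 at 0.77 and Uba6 at 0.83.

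All 12 tested genes of the MHC class I route rose, with a median of 0.94, where 41.0% of all genes rose. Tap1, the peptide transporter gene whose locus begins 225 bases beyond that of Psmb9, had 193, 207 and 195 FPKM in Bach2KO and 73.1, 63.5 and 73.9 FPKM in WT iTreg libraries, a difference of 1.5 (SE 0.07, limma adjusted p = 1.1e-05), and stood at 198 FPKM in Th1, 70.7 in Th2, 46.4 in Th17 and 82.1 in naive cells. The chaperone genes Canx and Pdia3 rose by 1.39 and 0.93, and Nlrc5, the transactivator of class I genes, by 0.94. Of 12 genes of the interferon list, 9 rose and 2 fell, beside 41.0% and 33.6% of all genes, and Irf2 did not pass. Irf1 had 181, 212 and 159 FPKM in Bach2KO and 45.98, 37.3 and 49.3 FPKM in WT (2.04). The feedback inhibitor Socs1 rose by 3.33 and Stat2 by 0.90, while the kinase gene Jak1 fell by 1.09 and the receptor subunit gene Ifngr2, named after its value was seen, by 0.86. Irf1 stood at 117 FPKM in Th1, 18.3 in Th2, 22.9 in Th17 and 147 in naive cells.

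Bach2 peaks lay near most members. A peak lay within 10 kb of 41 of the 46 tested members, against 58.8% of the 11473 genes tested. Peaks within 1 kb of the gene start, a distance chosen after the data were seen, were found at 30 of 46 members, against 19.2% of 11142 genes. Among genes with at least 10 FPKM in WT iTreg cells, they were found at 30 of 44 members and at 21.8% of 5968 genes. They were at 6 of 7 alpha, 4 of 4 structural beta, 2 of 3 standard catalytic beta, 5 of 6 ATPase and 9 of 11 non-ATPase genes, at 2 of 2 other activators and at 1 of 3 base chaperones. They were at 1 of 5 immunoproteasome members and at 0 of 4 core chaperones. Fold enrichment, score and tag count are the authors' values for each peak. The largest fold enrichments among these start peaks were at Psmd1 (summit 265 bases into the gene, 54.9-fold, 506 tags), Psmb6 (25 bases before the start, 53.9-fold, 136 tags) and Psma3 (383 bases in, 37.0-fold, 520 tags). Their sequences are among those shown.

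**Figure D5:**
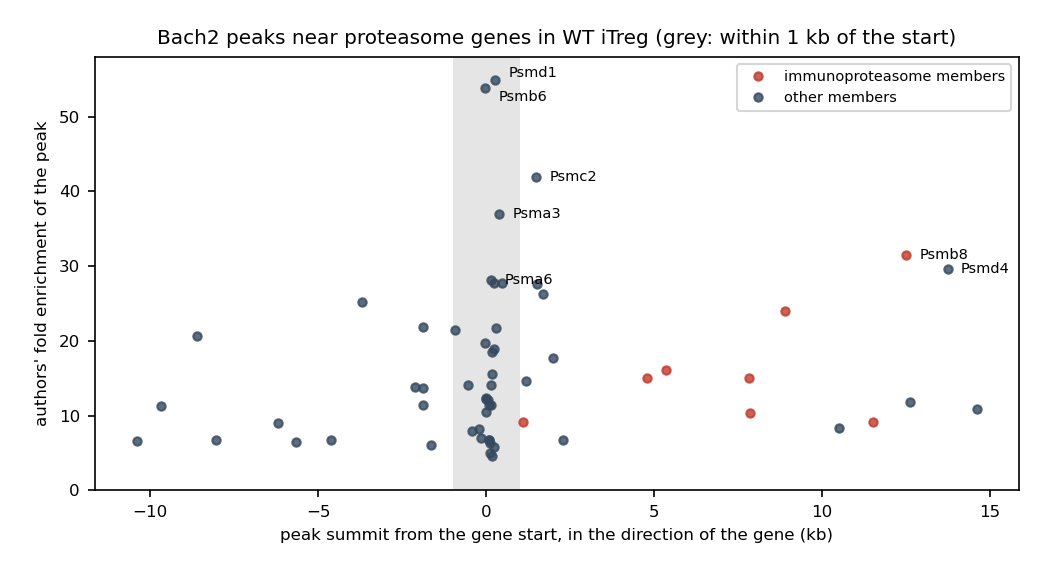
Points are Bach2 peaks near tested members, by the distance of the summit from the gene start (kb, positive into the gene) and the authors' fold enrichment. Peaks of other members crowd at the start, up to 54.9-fold, and no immunoproteasome summit falls inside the grey band of 1 kb.

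Among the immunoproteasome genes, the start peak of Psme2 was weak (9.17-fold, 31 tags) with its summit 1088 bases into the gene. A peak lay within 10 kb of 4 of the 5 immunoproteasome members, and Psmb9 had none. The nearest to Psmb8 lay 5358 bases from its start (16.1-fold) and the nearest to Psmb10 lay 8882 bases from its start (24.0-fold). A stronger peak lay 12488 bases from the start of Psmb8 (31.55-fold, 241 tags). Psme1 and Psme2 share a peak 7810 bases from the start of Psme1 (14.97-fold, 137 tags). The 29 other members with a start peak had a median log2 difference of 0.71 and the 12 without one had 0.72, and in both groups 0 fell. The 12 include Psmc3ip, which is not a proteasome subunit. Psme4 did not pass the test and had 5 peaks within 10 kb. That count takes in the whole of its long locus (chromosome 11, 30671775 to 30780361). Summits among the 5 lay 27864, 28433 and 30403 bases into the gene. Any link between peaks and differences was not tested. With 1 ChIP library, these positions have no replicate.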

How the data were processed

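RNA and ChIP values were used as the authors made them. The FPKM values were deposited per gene by the authors, made with Cufflinks from uniquely mapped 50-bp reads aligned to mm9 with TopHat, per the labels' protocols. Headers in the files name FPKM, and their extension RPKM. FPKM is scaled to transcript length and library size, so totals still differ between libraries. Neither tool versions nor the authors' gene models were found in the labels. Per the labels, 200 ng of total RNA went into each library. Peaks were called with MACS 1.4.0beta at a p-value cutoff of 1e-05 from 8992019 ChIP and 9999999 input tags, per the file headers, after Bowtie alignment, which the submitters' processing notes name. The tag count of a peak is unnormalized, the score is 10 times the −log10 of its p-value, the fold enrichment is a ratio of ChIP to local background, and the FDR is in percent, all deposited by the authors and described per the file headers.

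Locus starts in the expression files count from 0 and were raised by 1 for printing. Libraries were joined by symbol and locus. Reads behind a value were implied from the width of its deposited confidence interval, taken as 2 Poisson SD on either side. Differences between Bach2KO and WT iTreg, 3 libraries each, were tested with limma 3.58.1 in R 4.3.3 (lmFit, eBayes with trend) on log2(FPKM + 0.5), for the 11473 genes that averaged 0.5 FPKM or more in these 6 libraries, with two-sided tests, Benjamini-Hochberg adjustment over all genes and a threshold of 0.05. A log2(FPKM + 0.5) difference understates the change of low genes. Single libraries were compared by a 2-fold difference with no test, and pairs of subunits by an exact permutation test. Gene starts, strands and sequences came from the mm9 genome with GENCODE annotation, and shared 50-base stretches of transcripts were found with minimap2 2.31.

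The members and lists were chosen with earlier results of these data known. Named genes follow a rule: all immunoproteasome genes, the standard catalytic subunits, the chaperones and other activators, the 2 largest and 2 smallest differences in each other group of members, and up to 3 called genes per pathway list by adjusted p, with Pomp, Nfe2l1, Irf1, Tap1 and Nlrc5. Another gene that the rule names is not reported here. Foxp3, single marker genes and members named for peaks, levels or overlaps were added by their values. Alternatives were other pseudocounts, filters and scalings, a robust variance, a replicate block and leaving out each library. Deviations over genes of same-numbered Bach2KO and WT libraries had correlations of -0.038, -0.0382 and 0.006. With 3 libraries a group this cannot exclude a shared origin, and the labels do not state one. The main fit used no pairing.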

Additional observations from a re-analysis of the deposited data

Results flagged for a closer look

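Psmb9 moved both ways among the helper conditions. Its log2(FPKM + 0.5) difference from the naive library was 1.39 in Th1, 0.17 in Th2 and -1.05 in Th17, which puts it more than 2-fold above naive in Th1 and more than 2-fold below it in Th17. With 1 library a condition, the difference between them was not tested. No group here has 4 or more samples, so single outlying samples were not looked for.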

How the results depend on the processing

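The counts of called members (39 other members and 5 immunoproteasome members higher) stayed at 34 to 39 and at 5 under every alternative run, and the 3 differences between subunit pairs stayed within 1 SD. Leaving out each iTreg library in turn gave 39 and 5 in each case, and pair differences of 0.35 to 0.43 for Psmb8 over Psmb5, 0.92 to 1.03 for Psmb9 over Psmb6 and 0.08 to 0.19 for Psmb10 over Psmb7. Among the NRF1 route, 3 to 4 genes fell in those fits, with 3 without WT replicate 1. Under the replicate block 38 other members and 5 immunoproteasome members were called higher, with Psmd5 lost, and 4346 of all genes were. Whether same-numbered samples were paired is not known.

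Each scaling fixes a different total by its construction. Psme4 made 1 other member lower under quantile normalization, an equal upper quartile and equal sums (loci under 300 bp left out), and ran from -0.089 without Bach2KO replicate 3 to 0.0050 without Bach2KO replicate 2. Psmd4 was at -0.12, -0.0154 and -0.12 under those 3 scalings, Psmd5 at -0.0014 under an equal upper quartile and -0.10 with equal sums, and Psmd10 at -0.0081 with equal sums. Of the further proteasome parts, 6 rose and 1 fell with equal sums. Over single genes and settings together, 11 results lost their call, 3 gained one, 7 changed direction and 1035 kept direction and call. These counts include the results on single genes already given.

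Over naive, the 2-fold higher other members under quantile normalization, an equal upper quartile, an equal median ratio and equal sums were, in Th2, 2, 5, 4 and 2, in Th17, 3, 7, 4 and 4, and in WT iTreg 1 under each. In Th1 they were 2 with quantile normalization, 5 with the median ratio and 1 with equal sums. In Th2, 1 other member was 2-fold lower with equal sums. For the immunoproteasome, quantile normalization and equal sums gave 1 higher in Th1, those and the median ratio 1 lower in Th1, and in Th17 they gave 3, 2 and 2 lower (quantile, median ratio, sums). The cause of these shifts was not tested. Psma8 and Psmb11 were under the filter, and the part of depth in that was not tested. Repeated sequence limits Psma3, Psma4, Psma5, Psmb3, Psmb5, Psmd2, Psmd12 and Psme2 most (26.1% or more of their 50-base stretches shared). Smaller shares were found at further members, among them Psmd11 (19.1%), Psmc1 (18.9%), Psmc3 (16.5%), Psme1 (14.6%) and Psmb7 (12.8%).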
